A study of Mus musculus with 6 samples.

Results

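Meg3 is a maternally expressed long noncoding RNA that stays largely in the nucleus, where it is known to contact chromatin and chromatin-modifying complexes, and its loss is a known feature of several endocrine tumours. Chromatin isolation by RNA purification (ChIRP) maps the DNA that lies close to such an RNA: cross-linked chromatin is captured with biotinylated probes complementary to the RNA, and the DNA that comes with it is sequenced. Mouse chromosomes carry their centromere at the start of the numbered sequence, so positions run from the centromere (proximal) to the far end (distal). Much of distal mouse chromosome 4 is known to be conserved with a gene-rich part of the short arm of human chromosome 1. The regions described here are those that the deposited list for Meg3-overexpressing cells places on chromosome 4: 591 of 9010 regions in all, and of 9005 on nuclear chromosomes. Chromosome 4 was selected on the density of this same list, which rose towards its distal end. The boundary at position 115000000 that separates its distal part (midpoint at or beyond it) from its proximal part belongs to that choice. Density differences between the parts are therefore descriptions and carry no test.

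MIN6-4N cells, a mouse insulinoma line derived from pancreatic beta cells, were used. They were stably transfected with pcDNA3.1 Vector (clone V3) or pcDNA3.1-Meg3 (clone M5), selected in G418 at 750 µg/ml and grown on at 500 µg/ml. Both groups are single picked clones, and both were fixed with 1% glutaraldehyde. Each clone gave an input library without probe, 1 pull-down with the odd and 1 with the even Meg3 probe mix, and each of these 6 groups has 1 library. The list analysed carries the M5 code and gives positions on mm9 with no height, fold or p-value (0 of 9010 rows hold one), so odd against even probes and Meg3 against Vector could not be compared at a region, and no value has a spread between replicates. The depth of the libraries is unknown. Intervals are 95% exact intervals that treat regions as independent and cover counting error only. Neither genes nor sequence of mm9 were analysed here, so the regions are given by position alone.

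The distal part was short and held many of the regions. It contained 283 regions, or 47.9% of those on the chromosome (43.8 to 52.0 by the Clopper-Pearson method), in only 26.5% of the span between the first and the last region. The proximal part contained 308 regions on 112.0 Mb. This gave 7.02 regions per Mb in the distal part (Poisson interval 6.22 to 7.88) and 2.75 per Mb in the proximal part (2.45 to 3.08), a ratio of 2.55 (2.16 to 3.01). Outside chromosome 4 the nuclear chromosomes averaged 3.49 per Mb. The proximal part thus lay at 0.788 times that average and the distal part at 2.01 times. The median midpoint of the 591 regions was at 108.5 Mb, or 69.3% of the span, whereas the middle of the span is at 79.2 Mb.

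The first listed region ran from 3013371 to 3013474 (104 bp) and the last from 155335578 to 155335729 (152 bp). At the boundary, the last proximal region ran from 114927255 to 114927604 (350 bp), 72.6 kb before the boundary by its midpoint. The first distal region ran from 115162635 to 115163135 (501 bp), 163 kb beyond it. The stretch between them was 235 kb long, so the boundary fell in no long empty stretch.

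Counts in windows of 5 Mb were mostly higher beyond the boundary and varied within each part. Whether 2 levels or a steady climb described them better was not tested. The 22 complete proximal windows held 5 to 32 regions, with a median of 15. The 8 complete distal windows held, from the boundary outwards, 34, 21, 32, 33, 57, 39, 24 and 42 regions, with a median of 33.5. Density exceeded the average of the other chromosomes in 8 of 8 distal windows and in 5 of 22 proximal ones. The ranges overlapped: 2 proximal windows (45 to 50 Mb with 32 regions and 105 to 110 Mb with 26) reached or passed the lowest distal window, while 5 of the 8 distal windows lay above every proximal one. Over all 30 windows the count rose with position (Spearman rho = 0.61). Within the 22 proximal windows rho was 0.09, and within the 8 distal windows it was 0.38. These correlations are descriptions, since all windows come from 1 list and share its libraries. The largest change between adjacent complete windows was at the boundary, with 5 regions in the last window before it and 34 in the first beyond it. The boundary belongs to a choice made on this density, so this change is part of the choice. The last window before it was also a local low, while 105 to 110 Mb held 26.

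**Figure D1:**
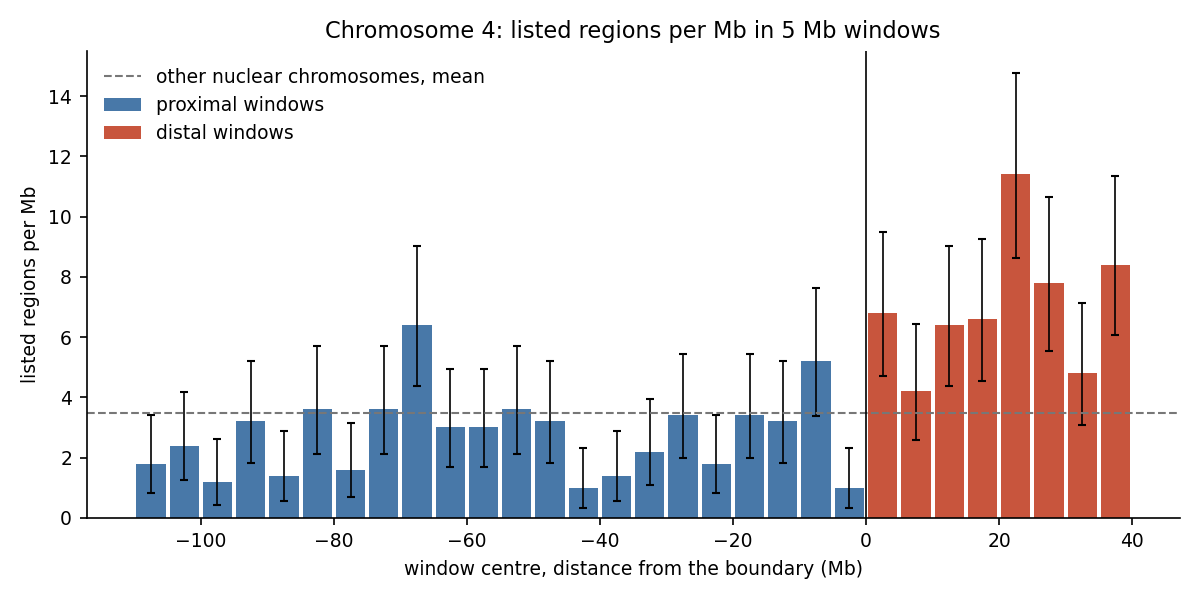
Listed regions per Mb in complete 5 Mb windows of chromosome 4, by the distance of the window's centre from the boundary (negative towards the centromere). Bars are densities, whiskers 95% exact Poisson intervals, and the dashed line is the 3.49 per Mb of the other nuclear chromosomes; the 8 distal windows all stand above that line, and 17 of the 22 proximal ones do not.

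Windows holding more than 32 regions, a limit set at the 90th percentile, were 49 of the 496 complete 5 Mb windows on nuclear chromosomes (9.88%). On chromosome 4 they were 5 of 8 in the distal part and 0 of 22 in the proximal part. Because density chose the chromosome, these counts describe the choice and nothing is read from them. The window from 135 to 140 Mb, with 57 regions, was 1 short of the highest count of any such window, the 58 regions between 90 and 95 Mb of chromosome 1, and level with 25 to 30 Mb of chromosome 17.

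Density also varied within the proximal part. The 15 Mb from 70 to 85 Mb held 23 regions (1.53 per Mb, 0.972 to 2.30), and the 5 Mb before the boundary held 5 (1.00 per Mb, 0.325 to 2.33). From the first listed region to 20 Mb, a length of 17.0 Mb, there were 32 regions (1.88 per Mb, 1.29 to 2.66). Single windows of 5 Mb were as thin elsewhere, such as 25 to 30 Mb with 7 regions, 35 to 40 Mb with 8 and 90 to 95 Mb with 9. The densest proximal window was 45 to 50 Mb, at 6.40 per Mb (4.38 to 9.04), a density within the range of the distal windows. These segments were chosen after their counts were seen.

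The distal part was uneven as well. Its first 20 Mb held 120 regions (6.00 per Mb, 4.98 to 7.18). From 135 to 143 Mb it held 91 regions (11.4 per Mb, 9.16 to 14.0), which is 32.2% of all distal regions. From 143 to 148 Mb the count dropped to 11 regions (2.20 per Mb, 1.10 to 3.94), a density that overlaps the proximal average. Beyond 148 Mb it was 61 regions (8.32 per Mb, 6.36 to 10.7). These limits, too, were set after the counts had been seen. Assembly gaps and repeated sequence in the quiet segment were not analysed here.

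Among windows of 1 Mb, 138 to 139 Mb was the fullest of the chromosome, with 20 regions (Poisson interval 12.2 to 30.9). It was followed by 141 to 142, 151 to 152 and 154 to 155 Mb with 13 each. The first proximal window in this order was 45 to 46 Mb with 12 regions, tied with 139 to 140 Mb. The distal part had no empty window of 1 Mb among 40 (range 1 to 20, median 7), against 14 empty windows among 111 in the proximal part (range 0 to 12, median 2). At 100 kb, 17 distal and 5 proximal windows had at least 3 regions, and they held 59 (20.8%) and 15 (4.87%) of their regions. The differences between the parts at both window sizes follow density, which chose the parts, and are no separate result. Of the 17, 9 fell between 138 and 143 Mb. The fullest, from 141.3 to 141.4 Mb, held 5 regions. Only chromosomes 11 and 1 had fuller windows of 100 kb, with up to 20 and 11 regions. Every other nuclear chromosome reached at most 5, so the value of chromosome 4 does not set it apart.

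No single dense site made up the distal excess, although the excess was not even along the arm, with 143 to 148 Mb at 2.20 per Mb. Leaving out the 1 Mb window with most regions from both parts gave a density ratio of 2.51 (2.12 to 2.97). Leaving out the whole of 135 to 145 Mb, an alternative chosen after the data were seen, gave 2.24 (1.86 to 2.70). The share of 500 kb windows with at least 1 region follows from density and is no separate result. It was 73 of 80 distal windows and 151 of 223 proximal ones.

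Spacing followed density. In the distal part the nearest neighbour lay at a median of 45.2 kb (quartiles 22 and 88.5 kb, 95% order-statistic interval of the median 36.2 to 55.1) and in the proximal part at 97.0 kb (41.4 and 213 kb, interval 82.4 to 117), a proximal value 2.15 times the distal one. The gap from a region to the next averaged 142 kb over 282 distal gaps and 364 kb over 307 proximal gaps. Once each gap was divided by the mean of its own part, the distributions nearly coincided. The lower quartile, median and upper quartile of the scaled gaps were 0.247, 0.594 and 1.36 in the distal part and 0.224, 0.538 and 1.28 in the proximal part, and the coefficient of variation of the gaps was 1.17 and 1.27. The plot of gaps shows a shift to shorter gaps at nearly every percentile and little difference in shape.

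**Figure D2:**
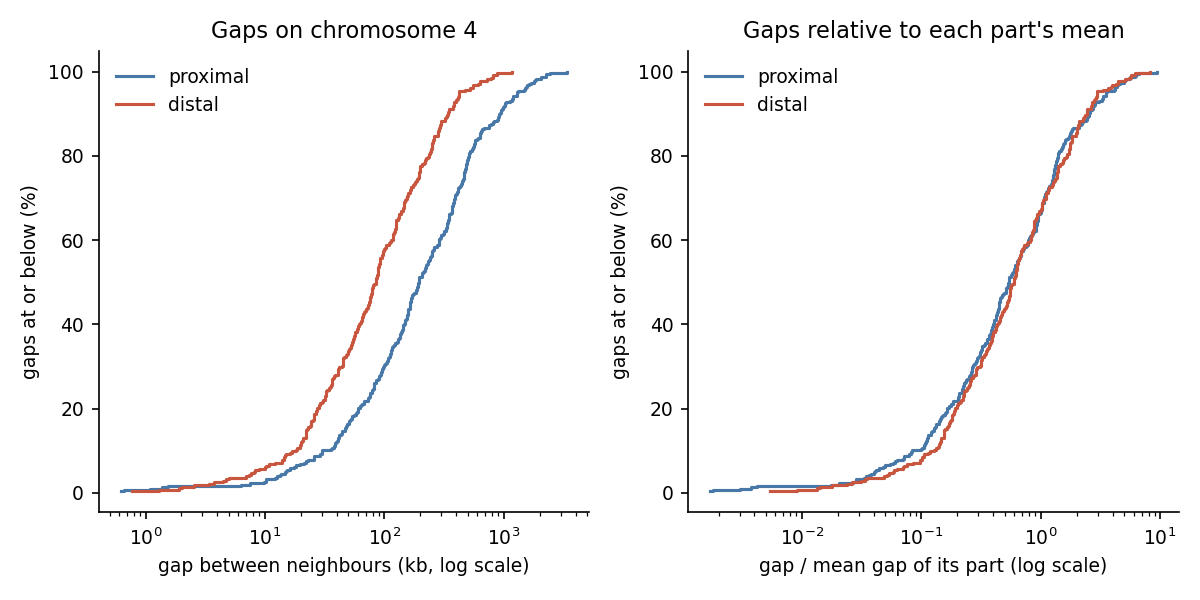
Cumulative distribution of gaps between neighbouring regions within the distal (282 gaps) and the proximal part (307 gaps) of chromosome 4, in kb on a log axis (left) and divided by the mean gap of the part, also on a log axis (right). The curves lie apart on the left, with medians of 84.5 and 196 kb, and nearly on top of each other on the right.

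Long stretches without a region were almost all proximal. Their number follows density, which chose the parts, so it is no separate result. Of 27 stretches over 1 Mb, 26 were proximal and took up 36.9% of that part, and 1 was distal and took up 2.92%. The 5 longest were each over 2 Mb. The longest, 3.40 Mb, lay between 77840417 and 81242437, and the next, 2.44 Mb, between 73158089 and 75599261. Those of 2.28 Mb (8842871 to 11118143), 2.25 Mb (70521313 to 72770187) and 2.06 Mb (95594837 to 97653608) followed, so that 3 of the 5 fell between 70 and 85 Mb. The density ratio was 2.27 (1.92 to 2.67) when stretches over 2 Mb were taken out of both denominators. The longest distal stretch, 1.18 Mb, lay between 121365906 and 122544783. The 3 distal stretches next in length, 0.885, 0.820 and 0.808 Mb, all lay between 144900489 and 147660139, where 2.76 Mb held only 3 regions: 145720050 to 145720181 (132 bp), 146605583 to 146605701 (119 bp) and 146851106 to 146851682 (577 bp).

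Close neighbours were few. Only 6 of 591 regions lay under 1 kb from another (1.02%, Clopper-Pearson interval 0.374 to 2.20), against 1.78% of the nuclear regions outside chromosome 4. The 3 pairs were 8841910 to 8842144 with 8842768 to 8842871 (623 bp apart), 43126251 to 43126658 with 43127319 to 43127561 (660 bp apart), and, in the distal part, 137256154 to 137256609 with 137257374 to 137257725 (764 bp apart). Within 10 kb, 30 of 283 distal regions had a neighbour (10.6%, 7.27 to 14.8) and 16 of 308 proximal ones (5.19%, 3.0 to 8.30). These shares follow density, which chose the parts, so their difference is no separate result. Outside chromosome 4 the share was 11.1%, at 3.49 regions per Mb. A run of 3 or more regions with gaps under 10 kb occurred once, with 4 regions between 141311288 and 141322411 that were 170, 63, 307 and 62 bp wide.

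Measures of unevenness depended on the scale in both parts. The variance of window counts divided by their mean, which is 1 for independent placement at even density, was 1.20 in the distal and 1.08 in the proximal part for windows of 100 kb, 1.63 and 1.45 for 500 kb, 2.23 and 1.96 for 1 Mb, and 3.56 and 3.35 for 5 Mb. Where density varies along a part, the ratio tends to grow with the mean count, which is larger in the distal part and in wider windows. Neither the small differences between the parts nor the rise with window size is therefore read as a difference in clustering. Between windows of 100 kb and 5 Mb the coefficient of variation of counts fell in both parts. It went from 1.31 to 0.318 in the distal and from 1.98 to 0.493 in the proximal part. At 1 Mb it was 0.562 and 0.845. This measure tends to fall as the mean count rises, so the proximal part is not read as more uneven.

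The regions themselves had like widths in both parts. The median width was 150 bp in the distal part (quartiles 112 and 249 bp, 95% order-statistic interval of the median 140 to 168) and 162 bp in the proximal part (114 and 254 bp, 147 to 178), and both parts began at 41 bp. The difference of -11.5 bp (distal minus proximal) was smaller than the width of either interval, and differences between the same shares of the other 19 chromosomes ran from -26 to 29 bp. Regions under 100 bp made up 19.4% of the distal regions (15.0 to 24.5) and 19.2% of the proximal regions (14.9 to 24.0). Regions of 500 bp or more numbered 11 in each part. No test was run on widths, since regions of 1 list are not replicates.

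**Figure D3:**
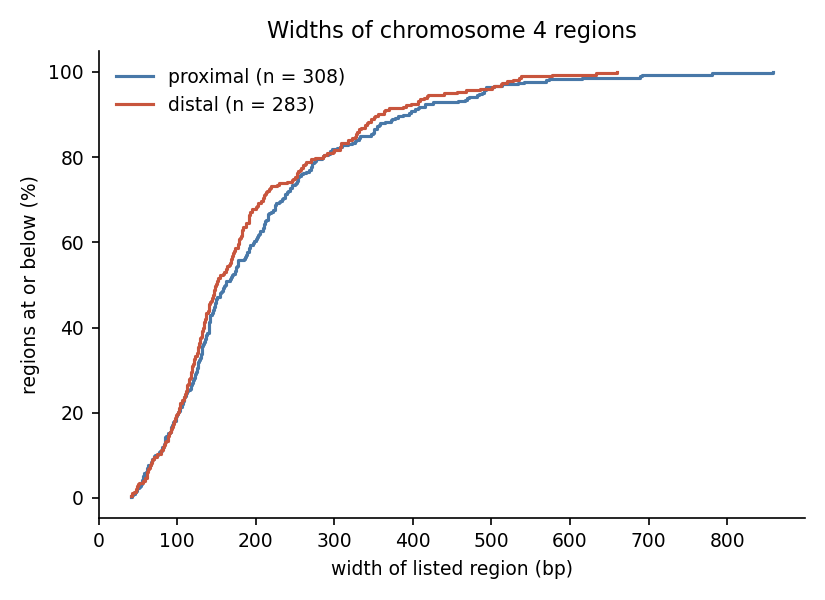
Cumulative distribution of the widths in bp of the 283 distal and 308 proximal regions of chromosome 4. The curves start together at 41 bp, stay close throughout and have medians of 150 and 162 bp.

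The distal part was denser in each of 4 classes of width. The density ratio was 2.59 for regions under 100 bp (55 distal, 59 proximal; interval 1.76 to 3.80) and 2.61 for those of 100 to 249 bp (157 and 167; 2.09 to 3.27). It was 2.35 for those of 250 to 499 bp (60 and 71; 1.64 to 3.36) and 2.78 for those of 500 bp or more (11 and 11; 1.09 to 7.06). The 4 intervals overlap, so no class of width could be told apart from another at these counts. Together the regions covered 1339 bp per Mb of the distal part and 560 bp per Mb of the proximal part, a ratio of 2.39. Over the 30 complete windows, the median width showed little relation to position (rho = 0.03) or to the count (rho = 0.18).

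Of the 10 widest regions, 7 were proximal and 3 distal. The widest spanned 858 bp (47165998 to 47166855), followed by 781 bp (89286653 to 89287433), 692 bp (54451214 to 54451905) and 689 bp (99183022 to 99183710), all proximal. The 3 distal ones spanned 660 bp (148979640 to 148980299), 633 bp (141363178 to 141363810) and 577 bp (146851106 to 146851682). The remaining proximal ones spanned 615 bp (62866025 to 62866639), 573 bp (91066064 to 91066636) and 570 bp (67735910 to 67736479). None of the 10 had a neighbour within 10 kb. Their distances to the nearest region ran from 15.2 kb for the region of 615 bp to 245 kb for that of 577 bp, the latter inside the quiet distal segment.

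Set beside other chromosomes cut at the same share of the span (the distal 26.5%), chromosome 4 had the highest density ratio of 20. This order depended on the share: cut at the last 50% of the span, chromosome 15 (1.96) stood above chromosome 4 (1.86). At the distal 26.5%, the other 19 ranged from 0.793 on chromosome 17 to 1.91 on chromosome 15 (1.56 to 2.34), with a median of 1.16. Chromosomes 5 and 11 reached 1.74 (1.48 to 2.04) and 1.54 (1.29 to 1.83), and chromosome 1, the densest of the list, 1.31 (1.15 to 1.50). The interval of chromosome 4 lay above that of 18 of the other 19 and overlapped that of chromosome 15. Since chromosome 4 was chosen for this property, its rank is a description. Counts per 1 Mb on chromosome 4 varied more than independent placement gives (variance over mean 2.23 distal and 1.96 proximal). The intervals assume such placement, so they are too narrow and their separation is no test.

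**Figure D4:**
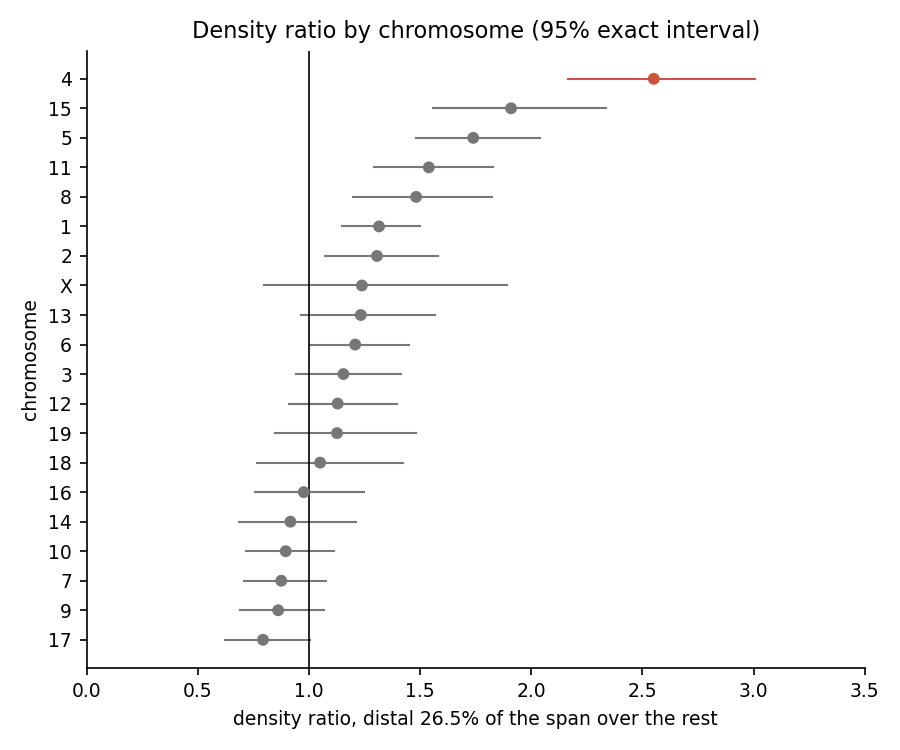
Density of listed regions in the distal 26.5% of each chromosome's span divided by the density in the rest, with 95% exact intervals (lines); the vertical line marks equal density. At this share chromosome 4 (2.55) stands highest, and its interval overlaps only that of chromosome 15 (1.91), which stands above it when chromosomes are cut at the last 50% of the span.

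Its distal density alone was less apart from those of the chromosomes next in order. The 7.02 per Mb of chromosome 4 was followed by 6.64 on chromosome 11 (5.77 to 7.60), 6.49 on chromosome 5 (5.72 to 7.33), 6.46 on chromosome 1 (5.78 to 7.20) and 6.21 on chromosome 15 (5.30 to 7.24). These intervals all overlap that of chromosome 4, which exceeded them by 1.06 to 1.13 times. The distal interval of chromosome 4 (6.22 to 7.88) lay above those of all remaining chromosomes. Of these, chromosome 19 was next, at 4.89 per Mb (3.84 to 6.125). The proximal density was the fifteenth-highest of 20, at 2.75 per Mb against 4.92 on chromosome 1, 4.32 on chromosome 11, 3.73 on chromosome 5 and 3.25 on chromosome 15. Chromosome 4 thus had 0.56, 0.64, 0.74 and 0.85 times the proximal density of these chromosomes. The proximal interval of chromosome 4 lay below those of chromosomes 1, 5 and 11 and overlapped that of chromosome 15 (2.86 to 3.69). Beside these chromosomes, its higher ratio thus combined a distal density like theirs with a lower proximal one. Other chromosomes had proximal densities close to its own, with 2.91 and 2.83 per Mb on chromosomes 3 and 8. Chromosomes 13 and 2 lay just below it, at 2.59 and 2.57. Among all stretches of 40 Mb taken in steps of 1 Mb, the 40 Mb from the boundary onwards held most regions on chromosome 4, 282. The boundary belongs to a choice made on this density, so the place of this stretch is part of the choice. The fullest stretch of the list was 156 to 196 Mb of chromosome 1 with 288, and 110 to 150 Mb of chromosome 5 held 271.

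**Figure D5:**
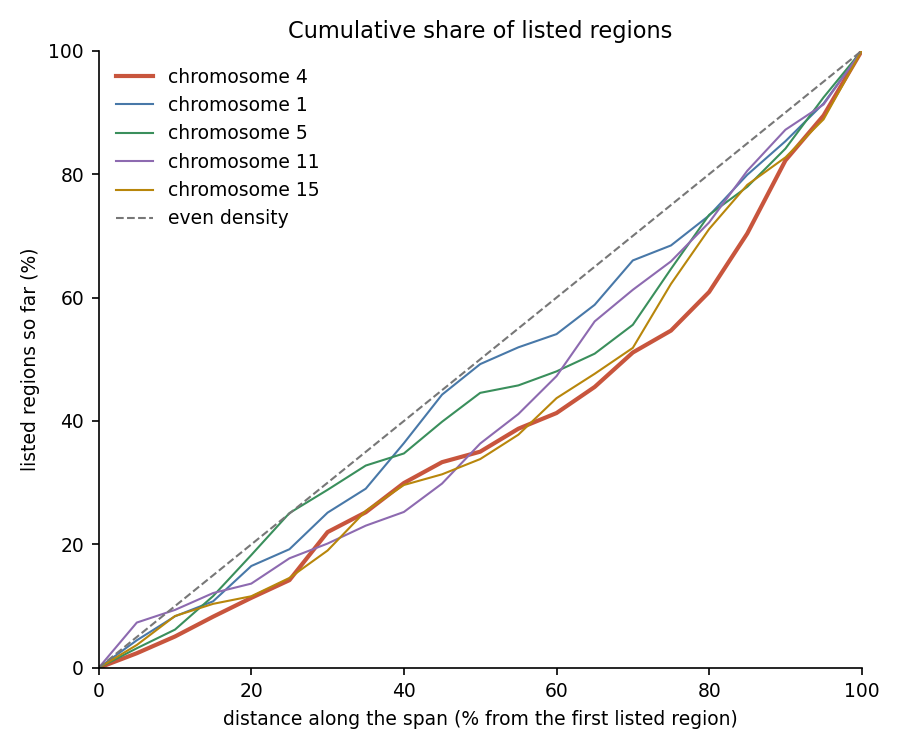
Cumulative percent of listed regions against distance along the span (percent from the first listed region) for chromosomes 4, 1, 5, 11 and 15; the dashed diagonal is even density. At 75% of the span chromosome 4 had gathered 54.6% of its regions, against 62.2% on chromosome 15 and 68.5% on chromosome 1. Chromosomes 4 and 15 lay close at 50% of the span (35.0% and 33.8%) and at 90% (82.2% and 82.7%).

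In 10 slices of equal length along the span, the last 2 slices of chromosome 4 held 126 (21.3%, 18.1 to 24.9) and 105 regions (17.8%, 14.8 to 21.1), and the other 8 held 30 to 63 each. The fullest slice was therefore the one before the last. The first slice held 30 regions (5.08%, 3.45 to 7.17), as few as the fifth. On chromosomes 15, 8 and 5 the last slice held 17.3%, 16.9% and 15.9% of the regions. Each of these shares lay within the interval of chromosome 4 (14.8 to 21.1).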

How the data were processed

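The authors deposited 1 list of regions with BED coordinates. The build is mm9, per the submitters' processing notes. The name is n/a and both value columns are 0 in every deposited row, so no signal or score was used. The aligner, the peak caller, its threshold and the meaning of "unique" in the list's name are not given in the sources used here. Libraries had single-end reads of 50 bp, per the labels. Columns of other samples numbered 0.

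Width is end minus start as deposited (BED starts, which count from 0), and printed starts were then converted to count from 1. Regions were counted by midpoint, and those at or beyond 115 Mb were called distal. Spans run from the first to the last region, with assembly gaps kept. Python 3.11.15, numpy 2.4.6, scipy 1.17.1 and pandas 2.3.3 were used. Densities carry exact Poisson intervals, shares Clopper-Pearson intervals, density ratios the interval of the distal share, and medians order-statistic intervals, all at 95%. No test was run, because the density of this list chose the chromosome and its regions are not replicates. The measures were tested on simulated lists. Items named are the 10 widest regions, those at the ends and the boundary, the 5 fullest 1 Mb windows, the 5 longest stretches, pairs under 1 kb and runs of 3 or more regions with gaps under 10 kb, beside chromosomes 1, 5 and 11. All other chromosomes and segments were named after their values were seen. Members and lists were chosen with earlier results of these data known. Gene models and promoter sequences at hand were of another build and were not used, so annotation and sequence composition were not analysed here. Alternatives were other boundaries, widths, windows, distances and denominators.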

Additional observations from a re-analysis of the deposited data

How the results depend on the processing

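The density ratio (2.55) was recomputed under 11 alternatives and stayed above 1 in each, from 1.86 with the boundary at the middle of the span to 2.80 without the quiet segment (143 to 148 Mb, an alternative chosen after the data were seen). The first was the 1 value outside the interval of the reported ratio. The rank of chromosome 4 depended on where chromosomes were cut: its ratio was 1.34 times the next highest as reported and 1.42 times with the last 20% of the span (chromosome 8 next), but 0.948 times with the last 50%, where chromosome 15 (1.96) stood above chromosome 4 (1.86). Measures that depend on a distance moved with it by construction. The share of distal regions with a neighbour rose from 0.707% under 1 kb to 6.36% under 5 kb and 10.6% under 10 kb, and the proximal stretches numbered 64 over 500 kb and 5 over 2 Mb instead of 26 over 1 Mb. The variance over mean of distal 1 Mb counts fell to 1.43 once regions narrower than the median were left out, with fewer regions per window. The width difference of -11.5 bp ran from -18.5 to 2.5 bp, so its direction is not settled. No paired analysis was possible because positions in a single list carry no replicate number. The planned annotation and sequence descriptions were not run. With no read depth given, a site missed by the caller cannot be told from an absent one in either part.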

Other observations

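The contrast along chromosome 4 was also followed over every boundary from 10 to 150 Mb in steps of 5 Mb, 29 in all, after the data had been seen. The density ratio was above 1 at each of them, lowest at 50 Mb (1.57, 95% exact interval 1.29 to 1.92) and highest at the boundary used here (2.55). Boundaries of 120, 125, 130 and 135 Mb gave 2.41, 2.53, 2.49 and 2.47, so that the ratio stayed between 2.41 and 2.55 over the 20 Mb beyond that boundary. At 140 Mb, inside the densest part of the arm, it was 1.95. Among these boundaries, a description of the chromosome by 2 even levels was closest to the counts with the boundary used here. The same list chose it, so this gives its place and nothing more.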
